A study of Rattus norvegicus with 12 samples.

Results

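The cluster of miR-143 and miR-145 is a pair of miRNA genes, Mir143 and Mir145, that lie side by side and are transcribed together. Its members here were taken by name on the array, by a rule that uses no signal, although earlier results of these data were known. MiR-143-3p, miR-145-5p and miR-145-3p are 3 of the 758 rat miRNAs that the array measured. A miRNA gene is transcribed as a longer RNA, and enzymes cut a hairpin from it and then a short duplex from the hairpin. Either strand of the duplex can be loaded onto an Argonaute protein, and bases 2 to 8 of the loaded strand, the seed, pair with target mRNAs. In the heart and in vessels this cluster is known as a smooth muscle marker that is switched on by serum response factor and myocardin, and in the mouse it helps to hold vascular smooth muscle cells in their contractile state.

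MiRNAs were measured in the left ventricle, near the infarction area, of 12 male Wistar rats with 1 array per rat. The Sham rats had the chest operation without ligation, the MI rats had the left anterior descending coronary artery ligated, and the YQFM rats had the same ligation and then received Yiqifumai Injection, an injection of botanical drugs, at 5 mg per kg per day for 28 days. Treatment began 4 weeks after surgery, and Sham and MI rats received saline on the same days, so that every group had been operated and injected. Each group had 4 arrays, and the GEO labels name the MI group a chronic heart failure group.

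The arrays reported 211 to 268 miRNAs each above background, no spot was saturated, and 263 miRNAs were tested. MI replicates 1 to 3 lay on slide 1, MI replicate 4 and YQFM replicate 1 on slide 2, and the Sham arrays with YQFM replicates 2 to 4 on slide 3. MI and Sham arrays never shared a slide. They are linked only through the YQFM arrays, by MI replicate 4 with YQFM replicate 1 on slide 2, and for MI replicates 1 to 3 the effects of slide and of group cannot be told apart. The source name of MI replicate 4 gives Sham and that of Sham replicate 4 gives YQFM, whereas their titles, descriptions and group entries give the groups used here. The labelled tissue was checked against cardiomyocyte miRNAs, of which miR-1-3p, miR-133a-3p, miR-133a-5p, miR-133b-3p and miR-499-5p were detected on all 12 arrays, miR-208a-3p on 1 array and miR-208b-3p on none.

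The mature sequences are shown first because the array measured only 1 arm of each hairpin above background. They are taken from RefSeq (rat assembly GRCr8), are written from 5′ to 3′, and carry the seed in capitals. The first 3 are the members, and the last is the other arm of Mir143, which the array also held.
rno-miR-143-3p: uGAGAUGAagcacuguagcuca
rno-miR-145-5p: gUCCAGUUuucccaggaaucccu
rno-miR-145-3p: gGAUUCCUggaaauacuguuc
rno-miR-143-5p: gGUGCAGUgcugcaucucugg
No seed was shared among these 4. A mature sequence was found in RefSeq for 685 of the 758 miRNAs of the array, and none of the others carried any of the 4 seeds, so that among these the cluster had no seed relatives.

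Both hairpins lie on the minus strand of chromosome 18 in GRCr8, inside Carmn, a long noncoding RNA gene that spans chr18:57368191-57389112. Mir143 occupies chr18:57371349-57371453 (105 bases) and Mir145 chr18:57369983-57370070 (88 bases), with 1278 bases between them. In the hairpins the capitals mark both mature arms, the 5p arm first.
Mir143: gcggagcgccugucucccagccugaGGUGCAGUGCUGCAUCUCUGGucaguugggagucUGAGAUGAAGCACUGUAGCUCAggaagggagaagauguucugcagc
Mir145: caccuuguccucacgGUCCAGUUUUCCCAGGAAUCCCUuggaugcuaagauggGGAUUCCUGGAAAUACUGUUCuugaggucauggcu
In Mir143 the 3p arm was the measured one, at bases 60 to 81 of the hairpin, and in Mir145 it was the 5p arm, at bases 16 to 38.

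Each arm was read by 2 probes with 8 spots each, and these sequences are shown because the probes of miR-145-5p are short. Probe 1 of each pair has 1 base more than probe 2, which is in capitals.
miR-143-3p probe 1: tgagctacagtgcttcatC
miR-143-3p probe 2: tgagctacagtgcttcat
miR-145-5p probe 1: agggattcctgggA
miR-145-5p probe 2: agggattcctggg
The probes of miR-143-3p pair with bases 4 to 22 and 5 to 22 of the miRNA. Those of miR-145-5p pair with bases 10 to 23 and 11 to 23, which leaves its whole seed outside the probe. The array annotation, on the older build rn4, places probe 1 of miR-143-3p at chr18:57625176-57625193 and probe 1 of miR-145-5p at chr18:57623772-57623784, and each span as annotated is 1 base shorter than its probe. The spots of a probe on 1 array varied by a median CV of 2.31% for miR-143-3p and 6.24% for miR-145-5p.

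**Figure D1:**
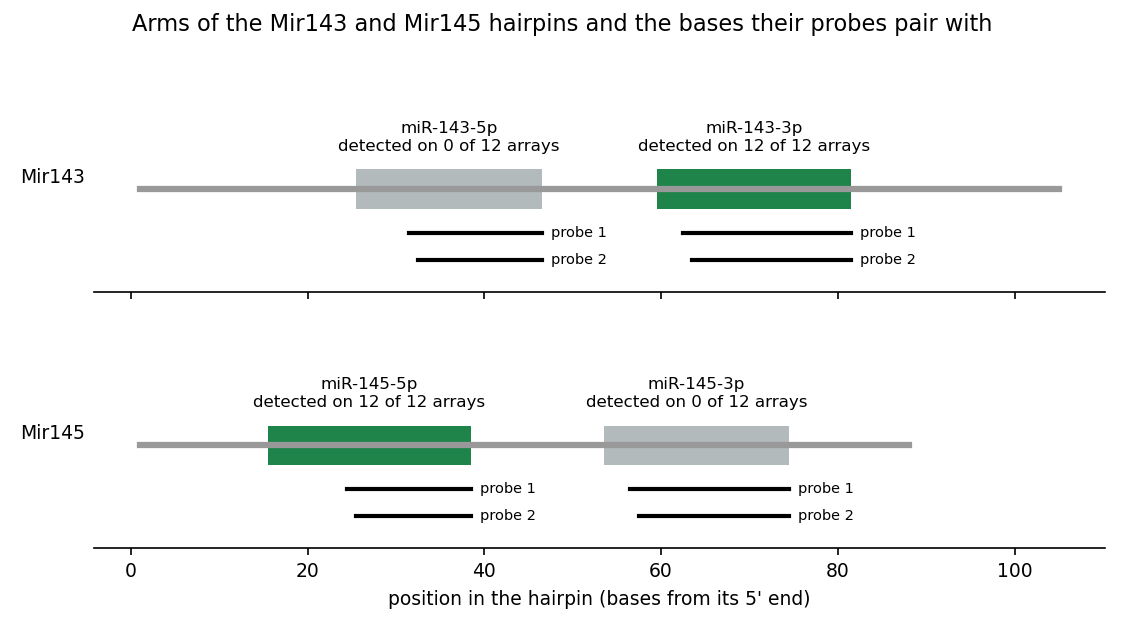
Arms and probes along each hairpin. The x axis is the position in bases from the 5′ end of the hairpin, green arms were detected on all 12 arrays, grey arms on none, and black lines mark the bases each probe pairs with. In Mir143 the 3p arm and in Mir145 the 5p arm were detected.

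MiR-145-3p, the member from the 3p arm of Mir145, was detected on 0 of 12 arrays. Its scaled signal before any floor ran from -1.81 on MI replicate 3 to 0.230 on YQFM replicate 2, around the level of the background that had been subtracted. The groups overlapped around 0, and no ratio is given because both sides of every comparison were below background. MiR-143-5p behaved alike, with 0 of 12 arrays and a scaled signal from -0.271 to 2.19. The authors' processed table lists both at 0.1, its lowest value, on every array.

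MiR-143-3p was detected on all 12 arrays by both probes. In the Sham rats its scaled signal, on the log2 scale, was 9.14, 8.89, 8.92 and 8.86 for replicates 1 to 4. In the MI rats it was 9.11, 8.66, 8.47 and 9.11. In the YQFM rats it was 8.98, 8.63, 8.85 and 8.64. The MI group held both the lowest array, replicate 3, and the second highest, replicate 4, so that it enclosed all YQFM values, and all 3 groups overlapped. The mean ± SD of 4 arrays was highest in Sham (8.95 ± 0.13), followed by MI (8.84 ± 0.33) and YQFM (8.77 ± 0.17). No neighbours in that order differed beyond their spread.

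MiR-145-5p was also detected on all 12 arrays by both probes, and its values spread more. In the Sham rats the log2 scaled signal was 5.51, 5.51, 5.34 and 5.25. In the MI rats it was 5.10, 5.00, 4.73 and 5.64. In the YQFM rats it was 5.55, 5.15, 5.33 and 5.17. MI replicates 1 to 3, the arrays of slide 1, were the 3 lowest of all 12. The 2 arrays of slide 2, MI replicate 4 and YQFM replicate 1, were the 2 highest, although they came from different groups. The mean ± SD of 4 arrays was 5.40 ± 0.13 for Sham, 5.30 ± 0.19 for YQFM and 5.12 ± 0.38 for MI, and again no neighbours in the order differed beyond their spread. Levels of different miRNAs cannot be set against each other on such an array, because probes differ in how well they bind.

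**Figure D2:**
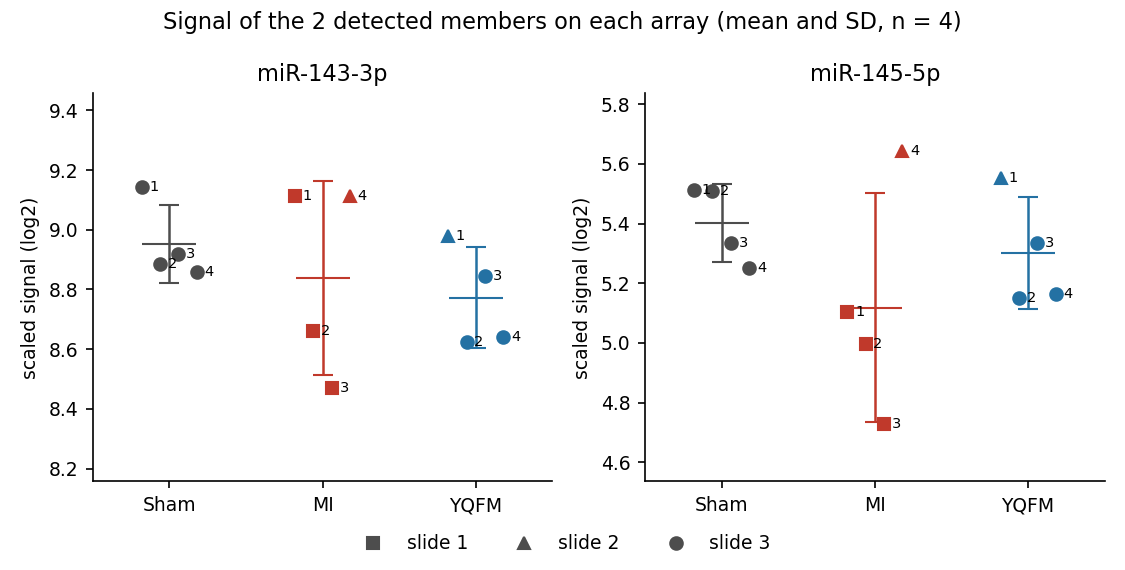
Scaled signal on the log2 scale (y axis) of miR-143-3p and miR-145-5p in the Sham, MI and YQFM groups. Each point is 1 rat with its replicate number, its shape gives the slide, and bars are mean and SD (n = 4). For miR-145-5p the 3 MI arrays of slide 1 are the lowest points, at 4.73 to 5.10, and MI replicate 4 is the highest, at 5.64.

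The comparison of MI with Sham asks what the infarction itself changed. Neither detected member passed the test. MiR-145-5p was 0.822-fold in MI relative to Sham, a log2 ratio of -0.28 (SE 0.175, 95% interval -0.67 to 0.10, limma adjusted p = 0.311). MiR-143-3p was 0.925-fold, a log2 ratio of -0.11 (SE 0.156, interval -0.46 to 0.23, limma adjusted p = 0.711). Of all 263 miRNAs tested, 19 were called (7.22%), 18 lower in MI (6.84%) and 1 higher (0.38%), and the median log2 ratio was -0.04. Groups did not overlap for 32 miRNAs (12.2%), and the members were not among them, since both had MI values above the lowest Sham value. Exact two-sided permutation tests gave p = 0.2 for miR-145-5p and p = 0.486 for miR-143-3p, where 4 rats against 4 cannot go below 0.0286. In such tissue, fewer cells of a type and less RNA per cell cannot be told apart.

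One array set the result for miR-145-5p. MI replicates 1 to 3 were below every Sham array, and replicate 4, the array whose source name gives Sham, was above every Sham array. Without replicate 4 the log2 ratio was -0.46 (interval -0.75 to -0.17, limma adjusted p = 0.0281), which passed the test, and that setting called 62 of 263 miRNAs (23.6%), 53 of them lower (20.2%). Groups then did not overlap for 80 miRNAs (30.4%), miR-145-5p among them. Without both arrays whose labels conflict the log2 ratio of miR-145-5p was -0.51 (limma adjusted p = 0.0334). In both settings the MI arrays were those of slide 1 alone, so that group and slide cannot be told apart in these calls. MiR-143-3p did not pass in either setting, with -0.20 (adjusted p = 0.388) and -0.24 (adjusted p = 0.4). With slide as a fixed block, the ratio of miR-145-5p was -0.095 (interval -0.64 to 0.45, limma adjusted p = 0.925). That value takes nothing from slide 1, which held no other group, and its only MI array is replicate 4, so that it does not bear on MI replicates 1 to 3.

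Under the scaling of the report, the 2 probes of miR-145-5p gave the same sign and different sizes. The mean log2 ratio of MI to Sham was -0.21 for the 14-base probe and -0.40 for the 13-base probe. On the 13-base probe MI replicates 1 to 3 read 4.69, 4.61 and 4.29, the 3 lowest of 12 arrays. On the 14-base probe they read 5.43, 5.30 and 5.07, and YQFM replicates 2 and 4, at 5.42 and 5.40, were below MI replicate 1. Thus the shorter probe separated these arrays from the YQFM arrays and the longer one did not. For miR-143-3p the 2 probes gave -0.10 and -0.18. The longer probe was the brighter one for both miRNAs, and its sign depended on the scaling. With arrays scaled on the brightest probe of each miRNA, it gave 0.045 for miR-145-5p and 0.15 for miR-143-3p. That scaling moved the median of all tested miRNAs by 0.16.

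The comparison of YQFM with MI asks what the treatment changed in infarcted rats. No member passed the test, nor did any of the 263 miRNAs (0%, smallest limma adjusted p = 0.0786, 50 at an unadjusted p under 0.05). MiR-145-5p had a log2 ratio of 0.18 (SE 0.175, interval -0.20 to 0.57, limma adjusted p = 0.702, exact permutation p = 0.429). MiR-143-3p had -0.07 (interval -0.41 to 0.28, limma adjusted p = 0.899, exact permutation p = 0.771). The YQFM values of both members lay inside the MI range, while 17 miRNAs (6.46%) had groups without overlap. Within slide 2, the only slide with both groups, YQFM replicate 1 minus MI replicate 4 was -0.13 for miR-143-3p and -0.09 for miR-145-5p, with 1 array each and no test.

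The sign for miR-145-5p therefore turned within that pair. A fit with slide as a fixed block returns the same pair difference and adds no other array to it. Without MI replicate 4 the log2 ratio was 0.36 (interval 0.07 to 0.65), which did not pass the test (limma adjusted p = 0.0877), and 28 miRNAs were called (10.6%). Groups then did not overlap for 64 miRNAs (24.3%), and miR-145-5p was 1 of them. The MI arrays left were those of slide 1, which held no YQFM array, so that group and slide cannot be told apart. This comparison and the former share the MI arrays, and MI replicates 1 to 3 are on the low side of both. The ratio of miR-143-3p without MI replicate 4 was 0.026.

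The comparison of YQFM with Sham asks how far treated rats were from operated controls. MiR-143-3p had a log2 ratio of -0.18 (interval -0.52 to 0.16, limma adjusted p = 0.689, exact permutation p = 0.2), and 3 of 4 YQFM arrays were below the lowest Sham array. MiR-145-5p had -0.10 (interval -0.49 to 0.28, limma adjusted p = 0.852, exact permutation p = 0.371). No miRNA of the 263 passed (0%, smallest limma adjusted p = 0.452, 15 at an unadjusted p under 0.05), and the median of all was -0.11. Groups did not overlap for 16 miRNAs (6.08%), without the members among them.

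Slide 3 held 4 Sham and 3 YQFM arrays, so that this comparison could be made within a slide. There the log2 ratio was -0.25 for miR-143-3p (interval -0.48 to -0.01) and -0.18 for miR-145-5p (interval -0.41 to 0.04). The limma adjusted p was 0.477 for both. On that slide the 3 YQFM arrays of miR-143-3p, at 8.63, 8.85 and 8.64, were all below the 4 Sham arrays, the lowest of which read 8.86. On slide 3, 21 of 263 miRNAs had groups without overlap (7.98%). For miR-145-5p, YQFM replicate 3 at 5.33 was above Sham replicate 4 at 5.25, so that the groups overlapped.

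**Figure D3:**
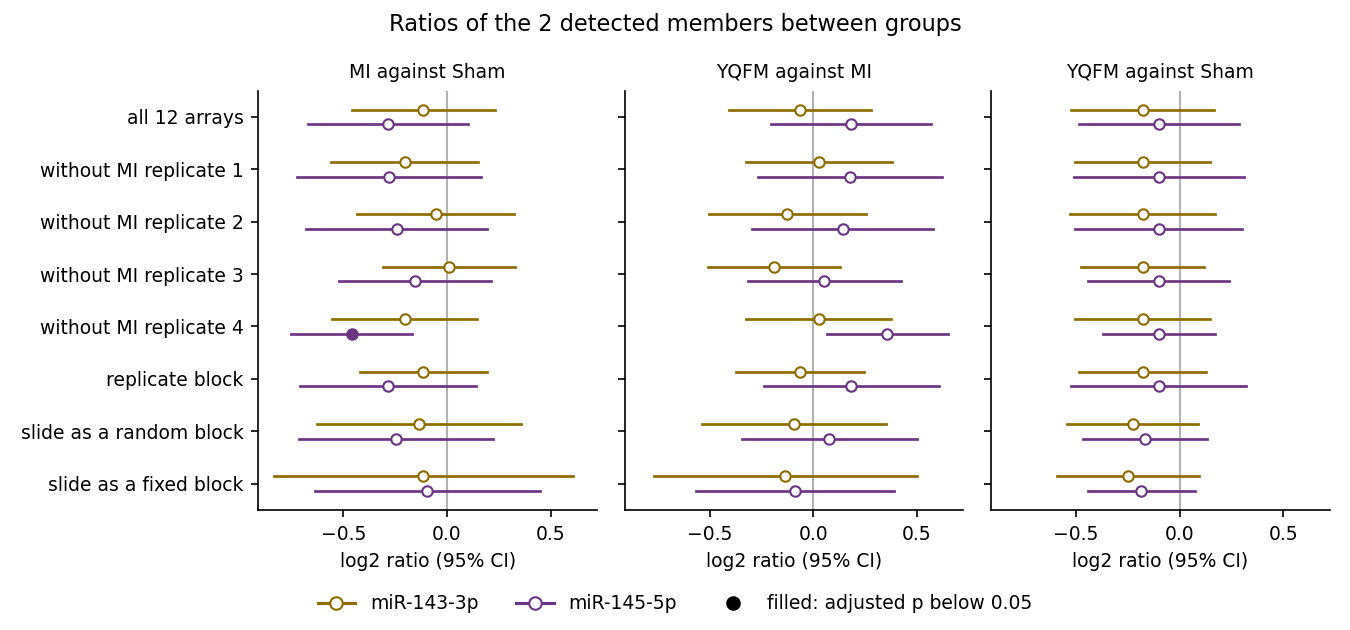
Log2 ratios (x axis) of miR-143-3p and miR-145-5p in the 3 comparisons, with 95% intervals from limma, for all 12 arrays, without each MI array, and with a block for replicate number or for slide. A filled point marks an adjusted p below 0.05, and the only one is miR-145-5p in MI against Sham without MI replicate 4, at -0.46. The MI arrays left there are those of slide 1 alone, so that group and slide cannot be told apart. With slide as a fixed block, MI replicate 4 is the only MI array behind the ratios.

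The cluster is transcribed as 1 RNA, and the signals of its 2 detected products were compared across rats. They varied together over the 12 arrays, with Pearson's r of 0.762 (permutation p = 0.00372, adjusted p = 0.00496 over 4 relations) and Spearman's rho of 0.727 (permutation p = 0.00929, adjusted p = 0.00929). Without MI replicate 3 and Sham replicate 1, the arrays farthest from the median of miR-143-3p, r was 0.585. The arrays left out of the further r were also chosen by miR-143-3p alone. After the group means were taken off, r was 0.823 (permutation p = 0.00068, adjusted p = 0.00136) and rho was 0.839 (permutation p = 0.00113, adjusted p = 0.00452), and r was 0.917 without the 2 farthest arrays. These permutations moved the deviations freely across groups and slides, although their spread was largest in MI, so that the p-values can be too small. Within the 7 arrays of slide 3, r was 0.861 (exact permutation p = 0.0161, adjusted p = 0.0161) and rho was 0.929 (exact permutation p = 0.00675, adjusted p = 0.00899), with r of 0.709 for 5 arrays. Before scaling, when the brightness of an array moves both, r was 0.903 (permutation p = 0.00022, adjusted p = 0.00088) and rho 0.804 (permutation p = 0.00257, adjusted p = 0.00514), and r was 0.696 without MI replicates 3 and 4.

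Many other miRNAs correlated with the members too. Among the 200 other miRNAs detected on all 12 arrays, the median r was 0.359 with miR-143-3p and 0.188 with miR-145-5p. MiR-145-5p was 12th in the order for miR-143-3p, and miR-143-3p was 10th in the order for miR-145-5p. These correlations are a description over 12 arrays that share their scaling and their slides. The 5 most like miR-143-3p were miR-93-5p (r = 0.897), miR-223-3p, a miRNA of myeloid cells (0.887), miR-345-5p (0.865), miR-149-5p (0.858) and miR-27a-3p (0.848). The 5 most like miR-145-5p were miR-30b-5p (r = 0.894), miR-664-3p (0.860), miR-149-5p (0.815), miR-30c-5p (0.810) and miR-365-3p (0.801). MiR-149-5p stood in both lists. In MI against Sham none of these passed the test, and the smallest limma adjusted p was that of miR-664-3p, at 0.0696 with a log2 ratio of -0.52.

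The difference between the 2 members within an array does not depend on a scaling factor that the whole array shares. Its absolute size has no meaning across probes, and it is used here only between groups. MiR-145-5p minus miR-143-3p, on the log2 scale, was -3.63, -3.38, -3.58 and -3.61 in the Sham rats. It was -4.01, -3.66, -3.74 and -3.47 in the MI rats. It was -3.43, -3.47, -3.51 and -3.48 in the YQFM rats. The YQFM arrays lay close together, across both of their slides, and MI replicate 1 stood lowest because its miR-143-3p was high and its miR-145-5p low. MI replicates 1 to 3, the only arrays of slide 1, were below every Sham and YQFM array. Group and slide cannot be told apart for them. MI replicate 4, on slide 2, was inside the range of both Sham and YQFM. None of the 3 comparisons passed an exact two-sided permutation test. MI minus Sham was -0.17 (exact p = 0.257), YQFM minus MI 0.25 (exact p = 0.114) and YQFM minus Sham 0.08 (exact p = 0.229), each with an adjusted p of 0.257 over the 3.

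**Figure D4:**
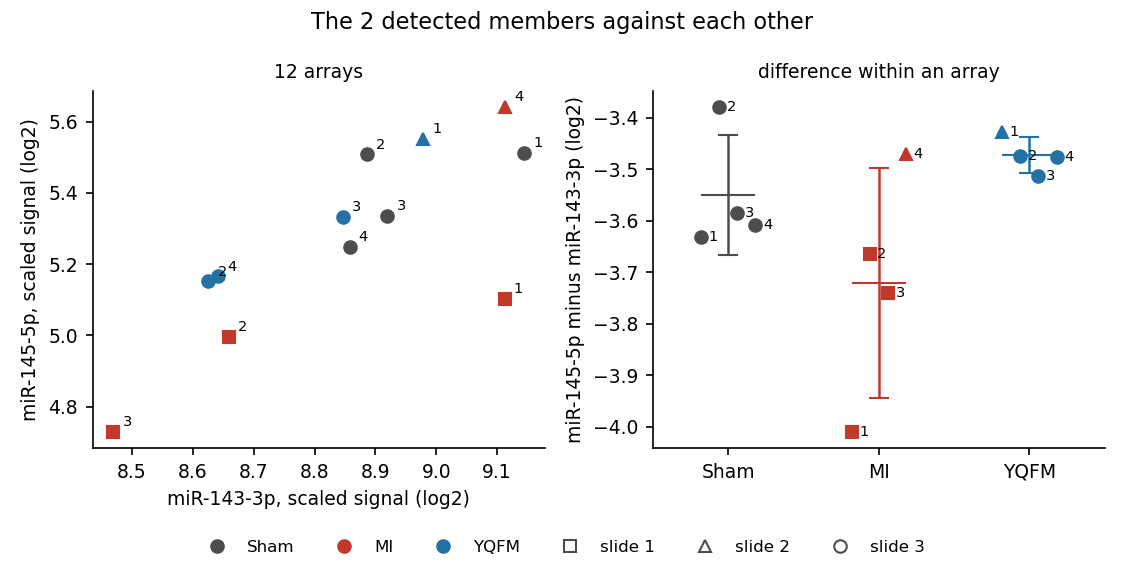
Left, miR-145-5p (y axis) against miR-143-3p (x axis), both as log2 scaled signal, with 1 point per rat. Right, miR-145-5p minus miR-143-3p on the log2 scale in each group, with mean and SD (n = 4). Colours give the group and shapes the slide, and MI replicate 1 lies apart at a difference of -4.01.

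The number of miRNAs that an array detected also moved with the members. It was 211 on MI replicate 3, the array lowest in both, and 268 on MI replicate 4, the array highest in miR-145-5p. Over 12 arrays it correlated with miR-145-5p at r of 0.663 (permutation p = 0.0185, adjusted p = 0.0923 over 5 relations) and rho of 0.566 (permutation p = 0.0582, adjusted p = 0.291). With miR-143-3p, r was 0.566 (permutation p = 0.054, adjusted p = 0.135) and rho was 0.455 (permutation p = 0.139, adjusted p = 0.295). Without MI replicates 2 and 3 these r were 0.177 and 0.128, so that both rest on those arrays. Within slide 3, r was -0.683 for miR-145-5p (exact permutation p = 0.0974, adjusted p = 0.162) and -0.467 for miR-143-3p (exact permutation p = 0.3, adjusted p = 0.342), the opposite sign. The part that detection had in the low values of MI replicates 2 and 3 was not tested.

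Other miRNAs that are known to act on the growth or contractile state of smooth muscle were read beside the cluster as a list taken from that known role. The list was written with earlier results of these data known. Of 18 on the array, 16 were tested and 13 were detected on all arrays. The list shares miR-21-5p, miR-29a-3p and miR-29b-3p with the fibroblast list read below. MiR-1-3p and miR-133a-3p also stand in the cardiomyocyte list, and miR-221-3p and miR-222-3p in the endothelial list. None was called in any comparison. In MI against Sham 11 of the 16 had ratios above 0 and 5 below, with a median of 0.16 beside -0.04 for all tested, and no member of the list had an unadjusted p under 0.05. MiR-21-5p, a miRNA raised in proliferating smooth muscle cells and fibroblasts, had a log2 ratio of 0.79 (limma adjusted p = 0.194). MiR-26a-5p had -0.11 (adjusted p = 0.718), miR-24-3p had 0.17 (adjusted p = 0.611) and miR-146a-5p had -0.01 (adjusted p = 0.972). In YQFM against MI the median was -0.12 beside -0.01 for all tested, and in YQFM against Sham it was 0.15 beside -0.11. The ratios of both cluster members had the other sign from this list's median in MI against Sham. This describes values that did not pass the test. The list was not split by whether a miRNA promotes or restrains growth, so that the sign of its median gives no direction for smooth muscle. MiR-221-3p, which smooth muscle and endothelial cells share, was detected on 1 array, and miR-204-5p on none.

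Markers of other cells in the ventricle were read beside the members, since the sampled tissue is mixed. None of the lists had a called miRNA in any comparison. The 7 fibroblast miRNAs had a median log2 ratio of 0.56 in MI against Sham, with 5 above 0 and 2 below. MiR-199a-5p was at 0.73 (limma adjusted p = 0.309), miR-199a-3p at 0.56 (adjusted p = 0.37) and miR-214-3p at 0.62 (adjusted p = 0.292). MiR-29a-3p was at 0.28 (adjusted p = 0.209), and miR-29b-3p and miR-29c-3p, which target collagen mRNAs, were at -0.00031 (adjusted p = 1) and -0.19 (adjusted p = 0.325). The summed scaled level of the 7 fibroblast miRNAs was 2411 to 3179 in Sham, 2645 to 4055 in MI and 2626 to 4208 in YQFM. Such sums, here and below, add signals of different probes and mostly follow the brightest miRNAs. In Sham the mean log2 signal was 10.4 for miR-29a-3p and 7.81 for miR-21-5p. The summed level of the cluster, with its undetected arms counted in, was 503 to 612 in Sham, 381 to 606 in MI and 432 to 552 in YQFM. It was mostly miR-143-3p, with a mean scaled signal in Sham of 497 beside 42.4 for miR-145-5p. The Sham and MI ranges overlapped for both sums.

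The 5 tested cardiomyocyte miRNAs had a median log2 ratio of -0.18 in MI against Sham, with miR-1-3p, the main miRNA of heart muscle, at -0.04 (limma adjusted p = 0.899), miR-133a-3p at 0.02 (adjusted p = 0.943), miR-133a-5p at -0.19 (adjusted p = 0.492) and miR-133b-3p at -0.18 (adjusted p = 0.325). The summed level of all 7 in the list, tested or not, was 10123 to 13512 in Sham, 9471 to 11869 in MI and 9275 to 11562 in YQFM. The 3 tested endothelial miRNAs had a median of -0.01, with 1 above 0 and 2 below. That median is the value of miR-222-3p, which was detected on 0 Sham, 1 MI and 3 YQFM arrays. MiR-222-3p was tested only through the YQFM group, so that its ratio of MI to Sham compares values mostly below detection. MiR-126a-3p was at 0.23 (adjusted p = 0.274), miR-126a-5p, from the same hairpin, at -0.11 (adjusted p = 0.711) and miR-222-3p at -0.0063 (adjusted p = 0.996). The list had a summed level of 575 to 745 in Sham, 720 to 959 in MI and 590 to 742 in YQFM.

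Of 8 blood cell miRNAs on the array 5 were tested, and miR-223-3p, miR-155-5p, miR-150-5p and miR-486 were detected in all 12 rats. The 3 tested leukocyte miRNAs had a median of -0.03, with miR-223-3p at -0.11 (limma adjusted p = 0.711), miR-155-5p at 0.01 (adjusted p = 0.971) and miR-150-5p at -0.03 (adjusted p = 0.89), while miR-142-3p and miR-142-5p, which mark blood cells widely, were on the array and detected in no rat. The list's summed level was 279 to 319 in Sham, 267 to 339 in MI and 265 to 319 in YQFM. The 2 tested erythrocyte miRNAs had a median of -0.20, with miR-486 at -0.26 (adjusted p = 0.136) and miR-451-5p at -0.13 (adjusted p = 0.936). MiR-451-5p was detected on only 6 of 12 arrays, and miR-144-3p was measured and detected in no rat. The list thus rests mainly on miR-486, and whether that signal came from erythrocytes was not tested. The summed level of the whole erythrocyte list was 198 to 251 in Sham, 162 to 214 in MI and 165 to 198 in YQFM. The part of any of these lists in the values of the cluster was not tested.

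**Figure D5:**
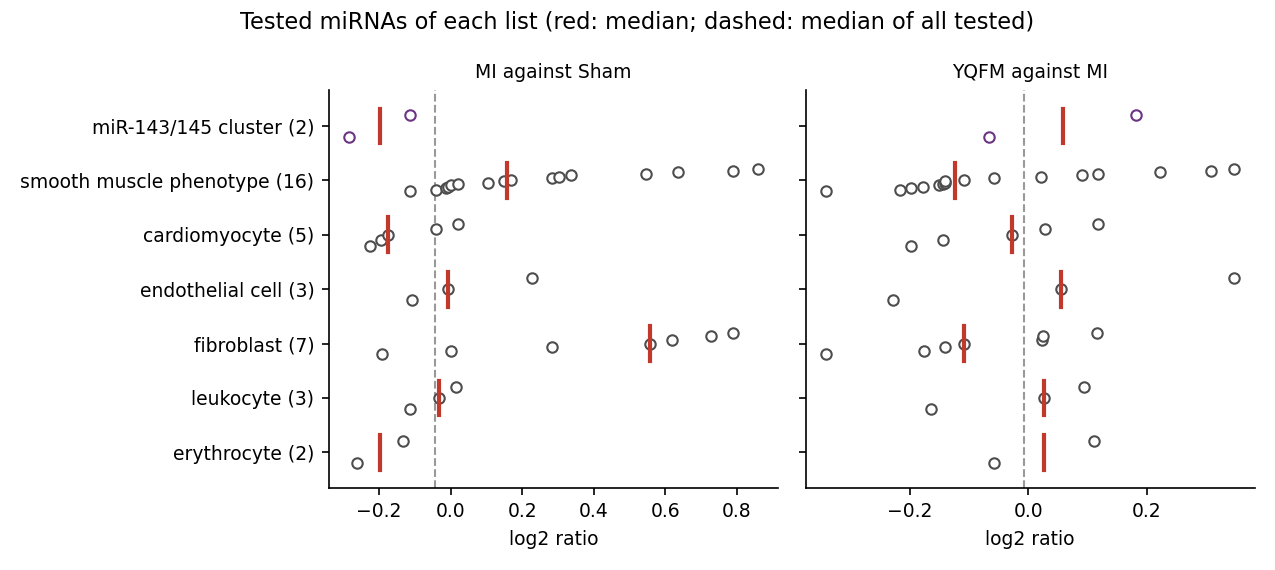
Log2 ratios (x axis) of the tested miRNAs of each list in MI against Sham and in YQFM against MI, with 1 point per miRNA, the number tested in brackets, the list's median in red and the median of all 263 tested miRNAs dashed. The fibroblast list has the highest median in MI against Sham, at 0.56, and the cluster one of the lowest, at -0.20, with no miRNA called.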

How the data were processed

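Per the labels and the methods, images of the single-dye arrays were read with Agilent Feature Extraction (version 10.7.1.1). The authors deposited the intensity of each spot, detrended and background-subtracted and not scaled between arrays, and a processed table of linear intensities, 1 per miRNA, in which probes had been added up. GeneSpring was named for the basic analysis, without a normalization.

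Here, control spots and outlier spots (902 to 1052 of 12128 per array) were left out. Spots were averaged per probe and probes per miRNA. Each array was scaled to a common 75th percentile, taken over the 201 miRNAs that all arrays detected. Detection required over 50% of the spots of at least 1 probe to be well above background. Scaled signals under a floor of 5.20 (log2 of 2.38) were set to it. MiRNAs detected on at least 2 of 4 arrays of a group were tested (263), and 471 were detected on no array. The number of arrays limits the precision.

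Groups were compared over all 12 arrays with limma 3.58.1 in R 4.3.3, with Benjamini-Hochberg adjustment at 0.05. The fit was tried on simulated data without a slide effect, which does not bear on how slide and group are mixed here. Intervals are 95% intervals of limma. Single values and correlations were tested by permutation (SciPy 1.17.1), exactly for groups or slides. All p-values measure only the spread between these arrays.

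Named miRNAs were the members, the other arm, the first 4 of each list detected on all arrays, and the 5 with the highest Pearson's r with each detected member. The members and the lists were chosen with earlier results of these data known. Alternatives were the total gene signal, normexp with an offset of 50, the authors' values, other scalings, probes, floors, filters and detection calls, a trend, the methods' t-test, a fit of 2 groups, the replicate number or slide as a block, values within a slide, and arrays left out. Positions and sequences came from RefSeq (GRCr8) and the probe annotation (rn4). No array was dropped or imputed in the values of the report unless stated.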

Additional observations from a re-analysis of the deposited data

How the results depend on the processing

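The alternatives to MI against Sham called 0 to 62 miRNAs in place of 19. There were 0 calls with normexp, the total gene signal, the authors' values, no scaling, the brightest probe, or slide as a fixed or random block, 2 with quantile normalization (1 higher and 1 lower, in place of 1 and 18), 3 with the percentile over all miRNAs, 7 without a filter, 6 by the methods' t-test and 58 without the arrays whose labels conflict. Leaving out 1 array gave 4 to 62, namely 7 without Sham replicate 1 or 4, 12 without Sham replicate 2, 11 without MI replicate 1, 4 without MI replicate 2 or 3, 62 without MI replicate 4 and 29 without YQFM replicate 1. YQFM against MI had 0 calls, but 2 with quantile normalization, 28 without the arrays whose labels conflict and 0 to 28 without 1 array (28 without MI replicate 4, 23 without YQFM replicate 1). YQFM against Sham had 0 calls under all 31 alternatives.

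The log2 ratio of miR-143-3p in MI against Sham turned to 0.068 with the total gene signal and 0.15 with the brightest probe, and ran from -0.20 to 0.0099 without 1 array (0.0099 without MI replicate 3). That of miR-145-5p was 0.045 with the brightest probe, -0.51 without the arrays whose labels conflict, and -0.46 to -0.15 without 1 array, the call being made without MI replicate 4 only. The total gene signal and the brightest probe moved the median of all tested miRNAs by 0.14 and 0.16. Relative to that median miR-145-5p was at -0.20 and -0.07, against -0.24 as reported, and with slide as a fixed block, where MI replicate 4 is the only MI array that counts, it was at 0.08. In YQFM against MI, miR-143-3p was 0.12 with the authors' values, 0.059 without scaling, 0.026 without the arrays whose labels conflict and -0.19 to 0.026 without 1 array (0.026 without MI replicate 1 or 4). MiR-145-5p was -0.011 with the brightest probe, -0.090 within slide 2, the same pair of arrays that decides the fit with slide as a fixed block (-0.090), and 0.05 to 0.36 without 1 array. In YQFM against Sham, miR-145-5p was 0.020 with the total gene signal, 0.059 with the authors' values, 0.016 with the percentile over all miRNAs, 0.056 without scaling and 0.033 with the brightest probe. The authors' values moved the median by 0.21 in YQFM against MI and by 0.17 in YQFM against Sham. The difference between the members in MI against Sham was 0.011 with normexp and -0.25 to -0.07 without 1 array. Causes were not tested.

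MiR-143-3p in YQFM against Sham (33 alternatives) and the within-array difference in both YQFM comparisons (21) kept sign, uncalled. Many of these cannot move the value. Deviations of samples with the same replicate number had a median correlation of -0.04 (range -0.64 to 0.32 over 12 pairs). For samples with different numbers it was 0.03 (range -0.57 to 0.59 over 36 pairs). These values show no sign of a pairing by number and cannot exclude one. With replicate number as a block, MI against Sham had 10 calls, and no member's call changed (limma adjusted p = 0.634 for miR-143-3p and 0.311 for miR-145-5p). The alternatives gave no value for miR-145-3p, below background on all arrays, and none within a slide for MI against Sham. Signal over background limits what can be said of miR-145-3p and miR-143-5p.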
